A study of Homo sapiens with 6 samples.

Results

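Of the 28395 genes in the authors' deposited comparison of A375 cells, 37 listed as NRF2 targets are described here. These 37 act in detoxification, NADPH production and the thioredoxin system. They were chosen by symbol: a row of that comparison belongs to the group if its gene symbol is TXN, TXNRD1, SRXN1, PRDX1, PRDX6, PGD, TALDO1, TKT, ME1, IDH1, NQO1, CBR1, CBR3, PTGR1, AKR1B1, AKR1B10, AKR1C1, AKR1C2, AKR1C3, GSTM3, GSTP1, GSTA4, MGST1, EPHX1, UGDH, ABCC1, ABCC2, ABCC3, ABCC4, ABCB6, BLVRA, BLVRB, CAT, OSGIN1, PIR, TRIM16 or TRIM16L. The rule itself uses symbols and no measured value, but the list was written with earlier results of these data known. Genes listed as NRF2 targets for glutathione synthesis, iron and haem were kept apart. A place in either list does not establish that NRF2 controls a gene in these cells. All 37 symbols were found, and all 37 had an implied mean of at least 10 reads per library.

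NRF2 (gene NFE2L2) is a transcription factor that KEAP1 holds in the cytoplasm and delivers for degradation. When oxidants or electrophiles modify cysteines of KEAP1, NRF2 escapes, pairs with a small MAF protein in the nucleus and binds antioxidant response elements, short DNA motifs near its target genes. The targets reduce disulfides and peroxides with thioredoxin, supply the NADPH that this takes, reduce or conjugate reactive carbonyls and quinones, and pump the conjugates out of the cell.

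A375, an established cell line from a human melanoma, was profiled by RNA sequencing in 2 groups of 3 libraries. The OLO group (control) was cultured for 6 h with 0.01% olive oil and the OZO group for 6 h with 0.01% ozonated olive oil, and the labels give both groups the same serum-containing medium and a WT genotype. The labels do not state that the 3 libraries of a group came from separate cultures, although a figure legend of the study describes the A375 expression data as independent experiments. The p-values measure the spread between these libraries. A375 is a single line and stands for no other melanoma.

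The values of single libraries are not analysed here. For each gene the authors' deposited table gives the log2 fold change of OZO against OLO, limma's moderated t and its p-value. It also gives the mean log2 CPM (read counts scaled to library size) over all libraries. Fold changes and p-values below are those of the table, except where another adjustment or the subtraction of a median is named. Group levels are the mean reads per library that those values imply at a geometric mean library size of 18409903 reads, and they carry no spread of their own. The standard error (SE) is the fold change divided by its t, and 95% intervals follow from it. A gene was called higher or lower at an adjusted p-value (Benjamini-Hochberg over all genes) under 0.05. As a check of the label, the melanocyte lineage markers SOX10 (1264.6 reads in OLO and 667 in OZO), MITF (539 and 461) and CSPG4 (1208.3 and 1265.5) were present, while PMEL and DCT had 6.06 reads or fewer in either group and TYR was below the floor of 3 reads in both. S100B (60.6 and 42.9), S100A1 (57.0 and 37.7), MLANA (28.6 and 46.8) and TYRP1 (11.3 and 10.8) were low. Of the markers of other cell types, KRT10 (476 and 462) was read about as deeply as MITF. LUM (83.1 and 92.4) and KRT14 (78.4 and 76.6) were also read, so the markers alone do not settle the cell type. None of the 10 melanocyte markers, and none of the 17 markers of keratinocytes, fibroblasts, leukocytes and endothelium, was called different, and at an unadjusted p-value under 0.05 the count was also 0. In bulk samples fewer expressing cells and less RNA per cell cannot be told apart.

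To show what NRF2 can recognise at these genes, the core letters of the antioxidant response element, TGACNNNGC, were searched on both strands of the RefSeq promoter windows (250 bases before to 50 after each transcription start, hg38). Of the 37 members, 30 were matched by symbol to a window, and CBR3, PRDX1, ABCC1, AKR1B10, PRDX6, ABCC3 and TRIM16L were not matched. The sequences below were chosen because they hold the full core at members of 4 different roles. That of NQO1 lies outside this window, in the longer window described below. Each is given 5′ to 3′ on the strand of the motif, with the core in capitals and 25 bases on either side.
NQO1: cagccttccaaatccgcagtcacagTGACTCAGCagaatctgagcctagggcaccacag
ME1: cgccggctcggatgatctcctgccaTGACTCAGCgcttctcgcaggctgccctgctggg
TXNRD1: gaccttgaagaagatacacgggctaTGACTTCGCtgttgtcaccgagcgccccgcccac
EPHX1: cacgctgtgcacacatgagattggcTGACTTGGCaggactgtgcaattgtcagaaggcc

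The NQO1 sequence (chr16:69726982-69727040, minus strand) has its core 455 bases before the start, in an exon of the divergent transcript NQO1-DT. The core of ME1 lies 137 bases before the start in intergenic sequence (chr6:83431155-83431213, minus strand). NQO1 and ME1 share the core TGACTCAGC, which also contains the AP-1 motif TGANTCA. In TXNRD1 the core lies 99 bases before the upstream start, in intergenic sequence (chr12:104215655-104215713, plus strand), and in EPHX1 78 bases before the downstream start, in an intron (chr1:225825251-225825309, plus strand).

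SRXN1 and OSGIN1, the members with the largest fold changes, are shown for comparison because their matches nearest to the start hold only the shorter core TGANNNNGC. The letters of that shorter core, which every full core also matches, are in capitals.
SRXN1: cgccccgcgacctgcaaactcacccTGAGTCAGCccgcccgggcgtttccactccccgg
OSGIN1: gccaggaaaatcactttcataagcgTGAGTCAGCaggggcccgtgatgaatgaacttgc

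The match of SRXN1 lies 272 bases before the start (chr20:653439-653497, minus strand), in an intron of an overlapping gene without a symbol. That of OSGIN1 lies 99 bases before the start (chr16:83953116-83953174, minus strand), in an intron of a longer OSGIN1 transcript. Both hold the letters TGAGTCAGC, which contain the AP-1 motif as well.

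In the 300-base windows, 12 of the 30 members held the full core (40.0%), against 16.1% of all 27305 genes with a window and 17.9% of the 15843 protein-coding ones. These were ABCB6, ABCC4, CBR1, EPHX1, GSTA4, GSTP1, IDH1, ME1, MGST1, PGD, PIR and TXNRD1. In longer windows of 1000 bases before to 50 after the start, 19 of 30 members (63.3%) and 37.4% of genes held it, and NQO1, OSGIN1 and TXN were among those added. The shorter core was in the 300-base windows of 20 members (66.7%, against 47.1% of genes) and AP-1 in those of 4 members (13.3%, against 9.37%). In the longer windows AP-1 was in 15 of 30 members, against 26.8% of genes, and the shorter core in 29 (96.7%, against 83.4%). A motif match is a description of the sequence and not a measured binding site.

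**Figure D1:**
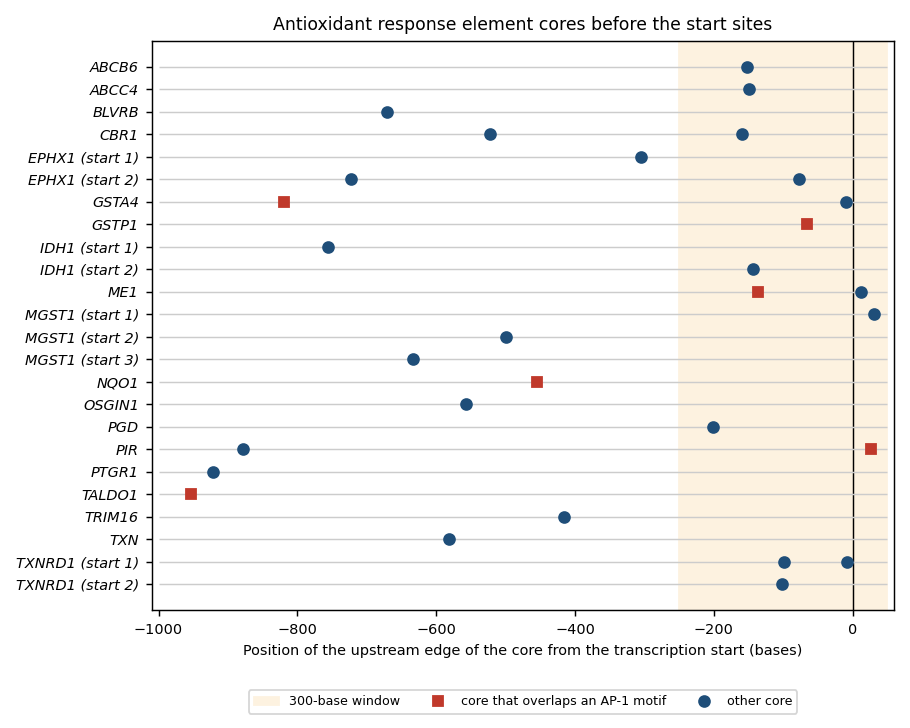
Position of each full antioxidant response element core (upstream edge, in bases from the transcription start at 0) in the longer window (from 1000 bases before to 50 after the start) of the 19 members that hold one, with a line for each start site. The shaded band is the 300-base window, in which 12 members have a core, and red squares mark cores that overlap an AP-1 motif.

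To examine whether OZO changed these listed NRF2 targets, the group means were compared gene by gene. Of the 37 members, 7 were called higher in OZO and 0 lower: OSGIN1, SRXN1, ABCC2, TXNRD1, TKT, PRDX1 and PRDX6. The share of 18.9% stands beside 3.98% of all genes called higher and 3.06% called lower. Since all members were read, the closer background is that of the 13773 genes with an implied mean of at least 10 reads, of which 7.75% were called higher and 5.89% lower. At an unadjusted p-value under 0.05, 14 members were higher and 1, CBR1, was lower, and 18.0% of the genes with at least 10 reads were higher.

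Most members differed by little. The fold change was positive for 33 of the 37 (89.2%), against 49.2% of the genes with at least 10 reads, and for 28 of the 37 once the median of all genes was subtracted. The median log2 fold change of the members was 0.34 (1.27-fold, quartiles 0.20 and 0.45), where that of the genes with at least 10 reads was −0.01 (quartiles −0.25 and 0.21) and that of all genes, 7012 of which had no read, was 0.19. Among the 7 called members only OSGIN1 and SRXN1 reached 2-fold. The interval of 19 of the 30 members that were not called stayed within 2-fold in either direction, and the interval of 10 reached a 2-fold rise.

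**Figure D2:**
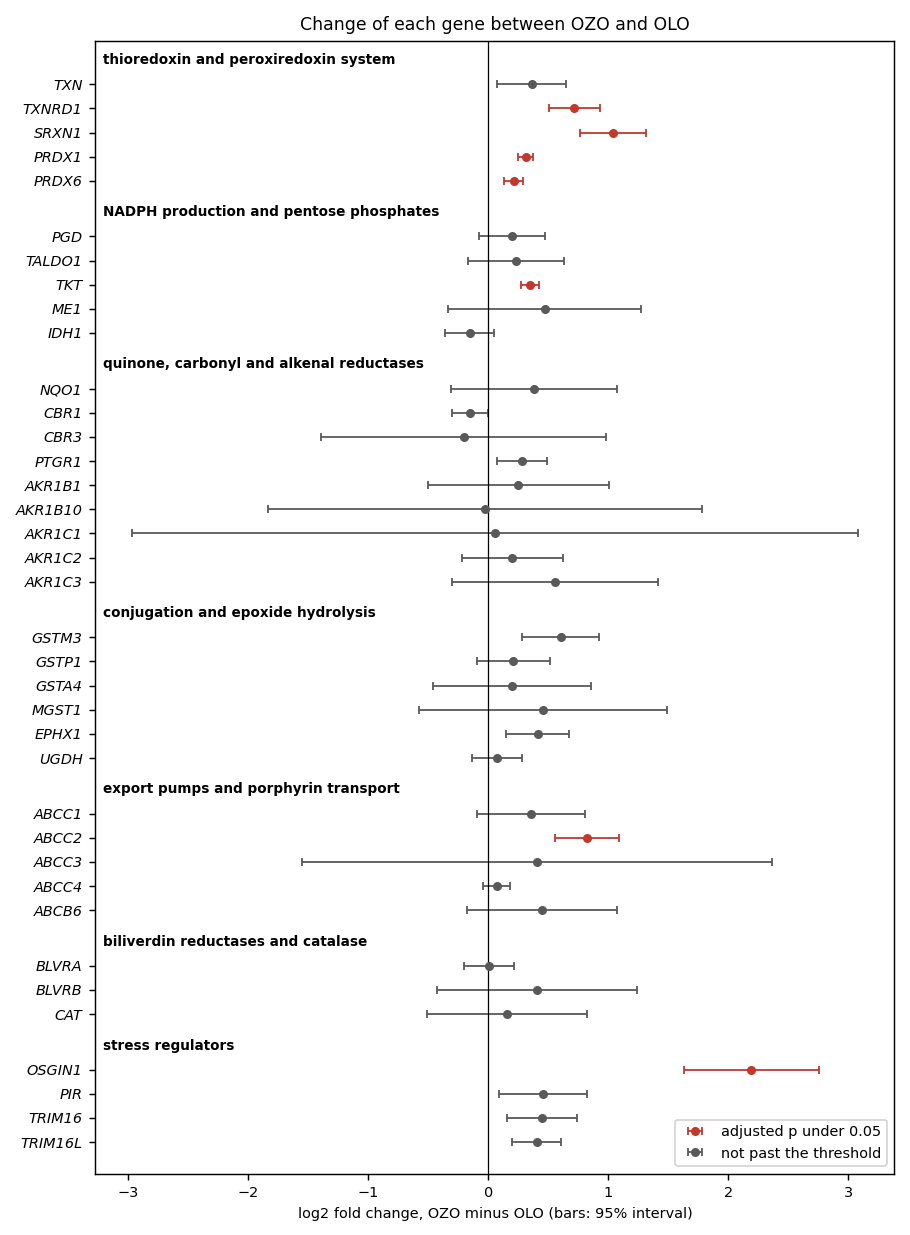
Log2 fold change of each member, OZO minus OLO, with its 95% interval as a horizontal bar, grouped by role. Red marks the 7 members with an adjusted p-value under 0.05, all on the positive side from 0.21 (PRDX6) to 2.19 (OSGIN1), and grey marks the 30 others.

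The thioredoxin and peroxiredoxin genes held most of the calls, 4 of 5. Thioredoxin (TXN) passes electrons to oxidized proteins, and thioredoxin reductase 1 (TXNRD1) restores it with NADPH. TXNRD1 (chromosome 12, 104215779 to 104350307) was the most read of the 37 genes, with 16800.8 implied reads per library in OLO and 27610.1 in OZO. Its log2 fold change of 0.72 (1.64-fold, SE 0.0825, interval 0.50 to 0.93) had an adjusted p-value of 0.0156. SRXN1 (chromosome 20, 646615 to 653200), sulfiredoxin, returns overoxidized peroxiredoxins to their active form. It rose from 2868.2 to 5896.4 reads, a log2 fold change of 1.04 (2.06-fold, SE 0.106, interval 0.77 to 1.31, adjusted p-value 0.0123), which was above that of 98.8% of the genes within 0.5 log2 CPM of its mean expression.

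Peroxiredoxins remove hydrogen peroxide and lipid peroxides. PRDX1 (chromosome 1, 45511051 to 45522890) went from 16225.4 to 20129.0 reads, with a log2 fold change of 0.31 (1.24-fold, SE 0.0246, interval 0.25 to 0.37, adjusted p-value 0.00824). PRDX6 (chromosome 1, 173477335 to 173488815), which also has phospholipase activity, went from 5818.7 to 6735.4 reads. Its log2 fold change of 0.21 (1.16-fold, SE 0.0302, interval 0.13 to 0.29, adjusted p-value 0.0248) was the smallest of any called member and was not called once the median of all genes was subtracted. Both estimates were precise, as the standard errors of PRDX1 and PRDX6 were larger than those of only 5.77% and 7.56% of genes of like expression. Their fold changes were less unusual, above those of 76.9% and 74.4% of such genes, where TXNRD1 was above 90.1%. TXN itself had 4358.8 reads in OLO and 5592.9 in OZO, a log2 fold change of 0.36 that exceeded both peroxiredoxins, but with an SE of 0.112 it did not pass (interval 0.07 to 0.65, adjusted p-value 0.157).

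Among the 5 genes of NADPH production and pentose phosphates, transketolase was the one called. TKT (chromosome 3, 53224712 to 53256022) moves carbon units between sugar phosphates in the non-oxidative branch of the pathway. It rose from 6442.3 to 8180.8 reads, with a log2 fold change of 0.34 (1.27-fold, SE 0.0299, interval 0.27 to 0.42, adjusted p-value 0.00971). TALDO1, transaldolase of the same branch, had a log2 fold change of 0.23 (interval −0.17 to 0.63, adjusted p-value 0.334).

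The enzymes that make NADPH itself did not pass. PGD, the phosphogluconate dehydrogenase of the oxidative branch, had a log2 fold change of 0.20 (interval −0.07 to 0.48, adjusted p-value 0.249). ME1, the cytosolic malic enzyme, had 943 reads in OLO and 1306.3 in OZO, a log2 fold change of 0.47 (1.39-fold, SE 0.313, interval −0.33 to 1.27, adjusted p-value 0.324). For ME1 the fold change was thus larger than that of TKT, with an SE larger than that of 98.1% of genes of like expression. IDH1, the cytosolic isocitrate dehydrogenase, was on the other side of 0, with −0.16 (interval −0.36 to 0.05, adjusted p-value 0.249).

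None of the 9 quinone, carbonyl and alkenal reductases was called in the limma fit, and at an unadjusted p-value under 0.05 PTGR1 was higher and CBR1 lower. NQO1, the quinone reductase that is the textbook NRF2 target, was abundant, with 10940.1 reads in OLO and 14213.7 in OZO. Its log2 fold change of 0.38 (1.30-fold, SE 0.27) had an interval from −0.31 to 1.07, which holds both no change and a 2-fold rise, and an adjusted p-value of 0.355. The SE of NQO1 was larger than those of 97.4% of genes of like expression.

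The carbonyl reductases CBR1 and CBR3 reduce quinones and ketones. CBR1 went from 616 to 553 reads, a log2 fold change of −0.15 (interval −0.31 to −0.0026, adjusted p-value 0.246), and was called lower once the median of all genes was subtracted. CBR3, at 51.1 and 44.2 reads, had −0.21 with a wide interval of −1.39 to 0.98. PTGR1, which reduces the double bond of alkenals and oxidized prostaglandins, had 0.28 (interval 0.07 to 0.49, adjusted p-value 0.139). The intervals of CBR1 and PTGR1 leave out 0, and neither gene passed the adjustment over all genes.

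The aldo-keto reductases reduce aldehydes and steroids and were read at very different depths. AKR1B1, aldose reductase, had 2304.8 reads in OLO and 2740.1 in OZO and a log2 fold change of 0.25 (interval −0.50 to 1.003, adjusted p-value 0.599). AKR1B10 had 11.8 reads in OLO and 11.6 in OZO, with −0.03 (SE 0.704, adjusted p-value 0.981). AKR1C1 had 26.3 and 27.4 reads, with 0.05 and the largest SE of the members, 1.18, which was above that of 98.4% of genes of like expression and gave an interval of −2.97 to 3.08. AKR1C2 had 105 reads in OLO and 0.20 (interval −0.22 to 0.62, adjusted p-value 0.427). AKR1C3, which reduces prostaglandins and steroids, went from 138 to 203 reads with 0.56 (1.47-fold, SE 0.333, interval −0.30 to 1.41, adjusted p-value 0.28).

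AKR1C1, AKR1C2 and AKR1B10 are uncertain because their transcripts resemble another gene, so that reads could be split or left out in counting. The canonical transcript of AKR1C2 was covered over 99.84% of its length by AKR1C1 at 97.08% identity, that of AKR1C1 over 49.32% by AKR1C2, and that of AKR1B10 over 61.95% by AKR1B15 at 95.42% identity.

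The 6 genes of conjugation and epoxide hydrolysis all had positive fold changes, with a median of 0.31, and none was called in the limma fit, while GSTM3 and EPHX1 had an unadjusted p-value under 0.05. The closest was GSTM3, a mu-class glutathione transferase, with 274 reads in OLO and 416 in OZO. Its log2 fold change of 0.60 (1.52-fold, SE 0.124, interval 0.28 to 0.92) was the largest of any member not called, and its adjusted p-value was 0.0583 over all genes and 0.0302 when the adjustment covered only genes with at least 10 reads. EPHX1, the microsomal epoxide hydrolase whose core is printed above, went from 471 to 626 reads with 0.41 (interval 0.15 to 0.67) and adjusted p-values of 0.0943 and 0.0496 under these adjustments.

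MGST1, a membrane-bound glutathione transferase that also reduces lipid peroxides, went from 2175.5 to 2980.0 reads. Its log2 fold change of 0.45 (1.37-fold, SE 0.402, interval −0.58 to 1.49, adjusted p-value 0.463) had the least precise estimate for its level, with an SE above 99.4% of those of like genes. GSTP1, the most abundant transferase at 2721.7 reads in OLO, had 0.21 (interval −0.10 to 0.51, adjusted p-value 0.255). GSTA4, which conjugates alkenals from lipid peroxidation, had 83.9 reads in OLO and 0.20 (interval −0.46 to 0.86). UGDH, which makes the UDP-glucuronate used in glucuronidation, had 0.07 (interval −0.14 to 0.28).

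Of the 5 transporters, ABCC2 was called. ABCC2 (chromosome 10, 99782640 to 99852594) encodes MRP2, an apical export pump for glutathione and glucuronide conjugates. It rose from 635 to 1119.3 reads, with a log2 fold change of 0.82 (1.76-fold, SE 0.104, interval 0.55 to 1.08, adjusted p-value 0.0191). The related pumps did not pass, and their intervals differed in width. ABCC4, with 1341.3 reads in OLO, had 0.07 and the interval −0.04 to 0.18, which is well short of the ABCC2 estimate. ABCC1 had 0.36 (interval −0.09 to 0.81, adjusted p-value 0.249), and ABCC3, at 66.7 and 88.6 reads, had 0.41 with an interval of −1.55 to 2.37 that covers almost any change. ABCB6, which carries porphyrins, had 180 reads in OLO and 247 in OZO, with 0.45 (interval −0.17 to 1.07, adjusted p-value 0.249). Differences between the pumps were not tested.

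The biliverdin reductases turn the biliverdin released by haem oxygenase into bilirubin, and catalase breaks down hydrogen peroxide. None of the 3 genes was called in the limma fit, and none had an unadjusted p-value under 0.05. BLVRA had 309 reads in OLO and 310 in OZO, a log2 fold change of 0.01 (interval −0.20 to 0.22, adjusted p-value 0.959). BLVRB, at 84.0 reads in OLO, had 0.41 (interval −0.43 to 1.24, adjusted p-value 0.412). CAT had 1563.3 reads in OLO and 0.16 (interval −0.51 to 0.83, adjusted p-value 0.723). For BLVRA the interval bounds any change well under 1.5-fold, and for BLVRB and CAT it does not.

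The stress regulators held the largest change. OSGIN1 (chromosome 16, 83953240 to 83966332) encodes an oxidative stress-induced growth inhibitor. Its implied level rose from 94.7 reads (OLO) to 434 (OZO), with a log2 fold change of 2.19 (4.56-fold, SE 0.219, interval 1.63 to 2.75, adjusted p-value 0.0118). This interval lay above that of every other called member, and 99.6% of the genes of like expression had a lower fold change. Next to it, PIR, an iron-binding nuclear protein, went from 160 to 220 reads with 0.46 (1.37-fold, SE 0.144, interval 0.09 to 0.82, adjusted p-value 0.162).

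TRIM16, a ubiquitin ligase that acts in autophagy of damaged organelles, went from 727 to 989 reads with a log2 fold change of 0.44 (interval 0.15 to 0.74, adjusted p-value 0.101). TRIM16L went from 456 to 603 reads with 0.40 (SE 0.0792, interval 0.20 to 0.60). Its adjusted p-value was 0.0526 over all genes and 0.0272 when the adjustment covered only genes with at least 10 reads. These genes cannot be told apart with certainty, since the canonical transcript of TRIM16L was covered over its whole length by TRIM16 at 98.29% identity and that of TRIM16 over 74.51% by TRIM16L.

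**Figure D3:**
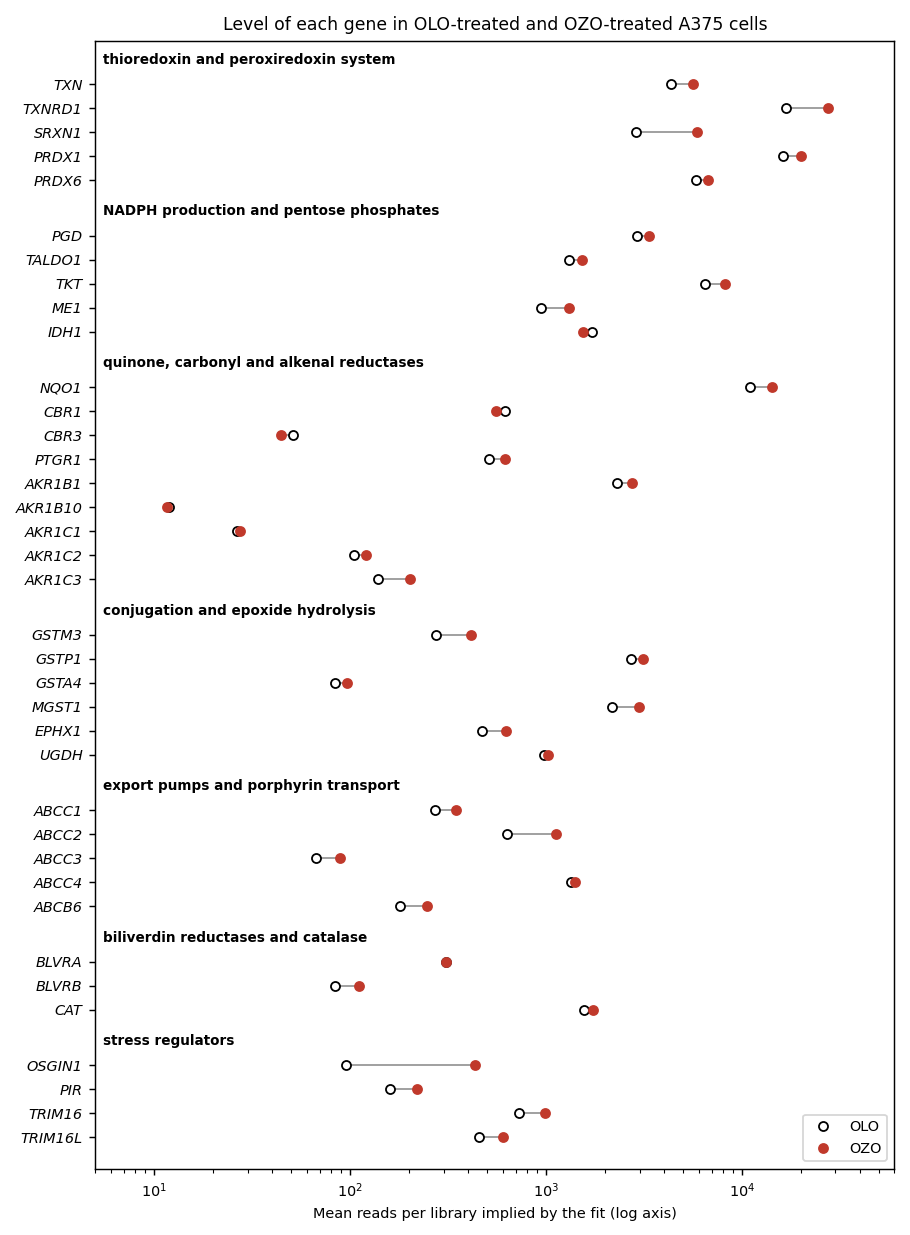
Implied mean reads per library of each member in OLO (open circles) and OZO (red circles) on a log axis, grouped by role. Levels span from 11.8 reads (AKR1B10) to 16800.8 reads (TXNRD1) in OLO, and the widest gap is that of OSGIN1, from 94.7 to 434 reads.

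Levels were then compared between genes per kilobase of canonical transcript, since reads grow with transcript length. In OLO the highest were PRDX1 at 17169.8 reads per kilobase, TXN at 5914.2, TXNRD1 at 4352.5, NQO1 at 4339.6, GSTP1 at 3673.0 and PRDX6 at 3443.0. These genes of thiol and quinone reduction and GSTP1 were thus well expressed in control cells before any ozonated oil. OSGIN1 stood far lower, at 49.3 reads per kilobase, and AKR1C1 was the lowest at 4.03.

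The precision of the fold changes differed widely between members. An SE above 90% of those of genes within 0.5 log2 CPM of their mean expression was held by 8 members, AKR1C1, AKR1C3, ABCC3, AKR1B1, CAT, ME1, MGST1 and NQO1, and none of these 8 was called. Which libraries carry that spread was not tested, as no values of single libraries were used. At the other end PRDX1, PRDX6 and TKT, 3 of the 7 called members, had an SE below 90% of those of their like.

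**Figure D4:**
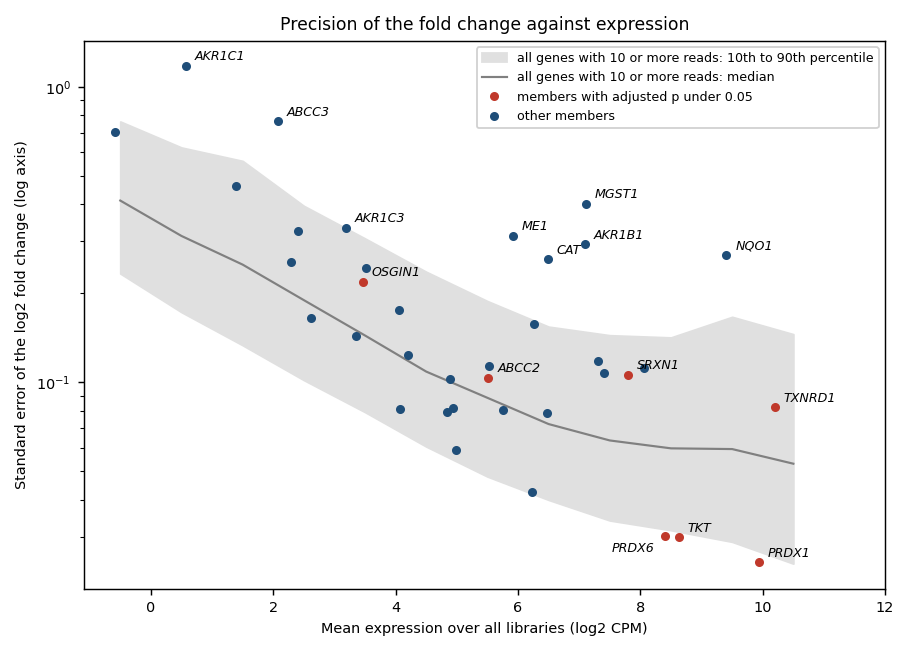
Standard error of the log2 fold change (log axis) against mean expression in log2 CPM over all libraries, for the 37 members as points, with the median (line) and the range from the 10th to the 90th percentile (grey band) of genes with at least 10 reads. Red points are the 7 called members, among which PRDX1, PRDX6 and TKT lie at or below the band, while NQO1, MGST1, AKR1B1, CAT and ME1 lie above it and were not called.

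Other genes of the pathway were then read from 7 lists that hold 127 genes, none of them a member. In these lists 10 genes (7.87%) were called higher and 5 (3.94%) lower. Of all genes, 3.98% were called higher and 3.06% lower, and of the genes with at least 10 reads 7.75% and 5.89%. The lists also hold genes with fewer than 10 reads, so neither background matches their levels closely. NFE2L2, which encodes NRF2, had a log2 fold change of 0.13 (interval −0.06 to 0.32, adjusted p-value 0.267), and KEAP1 had −0.17 (interval −0.31 to −0.03, adjusted p-value 0.176). Of the 12 genes for NRF2 and its regulators, 2 were called higher and 2 lower. MAFF, a small MAF partner, rose by 1.80 from 384 to 1338.6 reads (adjusted p-value 0.00539), and BACH1, a repressor at the same elements, rose by 0.90 (adjusted p-value 0.0141). CUL3, the ubiquitin ligase scaffold that works with KEAP1, fell by 0.36 (adjusted p-value 0.0178), and PALB2, a DNA repair protein that binds KEAP1, fell by 0.71 (adjusted p-value 0.011). The other small MAF genes of the list, MAFK at 1.41 and MAFG at 0.46, were not called (adjusted p-values 0.050004 and 0.0596). When the adjustment covered only genes with at least 10 reads, the values were 0.0258 and 0.0310. MAFK and MAFG are named after their values were seen.

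Of the 16 genes of the glutathione, iron and haem list, 6 were called higher and 0 lower, with a median log2 fold change of 0.49 beside 0.34 for the members. This median covers all 16 genes, of which 13 had at least 10 reads, as all members did. The list was written from general knowledge, and a place in it does not establish that NRF2 controls a gene. HMOX1, haem oxygenase, had 4.53 (SE 0.58), GCLM 1.003 (SE 0.0563), GCLC 0.87 (SE 0.0591) and FTL, ferritin light chain, 1.11 (SE 0.138). CHAC1, which degrades glutathione, had the lowest fold change of the list, −2.16 (169 reads in OLO and 37.6 in OZO). Its adjusted p-value was 0.0612 over all genes and 0.0318 when the adjustment covered only genes with at least 10 reads, and CHAC1 is named after its values were seen. GCLM and GCLC encode the subunits of the enzyme that starts glutathione synthesis. OSGIN1 and SRXN1 were the only members with a fold change above that of GCLM.

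The paralogues and pathway neighbours of the members made up the other 5 lists. Of 22 other thioredoxin, glutaredoxin and peroxiredoxin genes, 1 was called higher, the thioredoxin-like TXNL1 with a log2 fold change of 0.55 (adjusted p-value 0.0089), and TXNIP, which binds thioredoxin, had −0.38 (interval −1.18 to 0.41, adjusted p-value 0.417). Of 17 other pentose phosphate and NADPH genes, 1 was called lower, the mitochondrial NAD kinase NADK2 at −0.37 (adjusted p-value 0.0355). Of 39 other detoxification enzymes, 0 were called higher (3 at an unadjusted p-value under 0.05) and 2 lower, CYP1A1 at −1.69 (adjusted p-value 0.0141) and PTGR3 at −0.83. SOD1, the cytosolic superoxide dismutase, was the 1 call among 11 superoxide and peroxide enzymes (0.33, adjusted p-value 0.0397). None of 10 other export pumps was called in the limma fit, and at an unadjusted p-value under 0.05 3 of them were higher. The median log2 fold changes of these lists lay between −0.02 and 0.19, with their genes of fewer than 10 reads included.

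**Figure D5:**
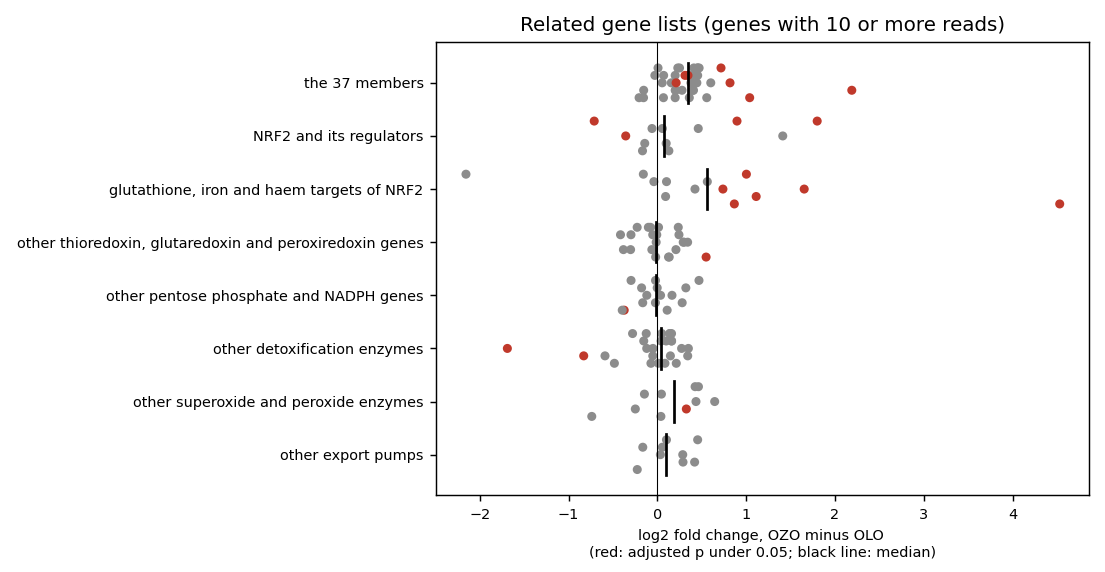
Log2 fold change, OZO minus OLO, of the 37 members and of the genes of each related list that had at least 10 reads. Each gene is 1 point, red for an adjusted p-value under 0.05. The black bar is the median of the points shown, so it can differ from a median over the whole list. The members sit mostly between 0 and 0.60, the glutathione, iron and haem list reaches 4.53 (HMOX1), and the other thioredoxin, pentose phosphate and detoxification lists are centred near 0.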

How the data were processed

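Libraries were strand-specific, and the submitters' notes name HISAT2 2.1.0, featureCounts 2.1.1 and limma 3.58.1, with hg38. Normalization factors, filters and strand settings of the counting are not given in the sources used here. The authors deposited 1 table of the comparison, treated minus control, read as OZO minus OLO. Its deposited log2 values are the fold change and the mean log2 CPM, to which voom adds 0.5 per count. Its deposited score is limma's moderated t, and its deposited p-values are raw and Benjamini-Hochberg adjusted. These columns are the authors' own comparison, so no new model was fitted. Values after subtracting a median were recomputed with the same SE. There were 0 columns of single libraries left unused.

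Reads per group, SE and 95% intervals (5.02 to 5.24 degrees of freedom) were computed with Python 3.11.15 and scipy 1.17.1. The implied levels rest on a recovered library size, the floor is 3 reads, and floors cover counting error only. The procedures were tested on simulated data. Similar transcripts were found with blastn 2.17.0 in GENCODE 44 (at least 100 aligned bases and 95% identity). Gene positions and promoter windows are from RefSeq for hg38, and all 35116 windows matched the genome.

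Members, lists and marker genes were chosen with earlier results of these data known. Full statistics are given for called members and for the 5 others with the largest fold change. Of each other list, up to 4 called genes with the smallest p-value are named, and GCLM, GCLC, HMOX1, NFE2L2, KEAP1, BACH1 and TXNIP whatever their values. A further gene of this last group is not reported here.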

Additional observations from a re-analysis of the deposited data

How the results depend on the processing

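No paired analysis was possible because the deposited table has a single comparison and no library columns, and leaving out each replicate in turn could not be run for the same reason, so how far 1 library decides a call was not tested. Protein identity was replaced by transcript similarity, an alternative chosen after seeing the data, as was the longer promoter window. Of the members, 7 were called; 2 were at an adjusted p-value under 0.01, 2 with a 2-fold minimum and 15 (14 higher, 1 lower) at an unadjusted p-value under 0.05. Adjusting over genes with at least 10 reads gave 10, adding EPHX1, GSTM3 and TRIM16L. Subtracting the median of all genes, which lowers every log2 fold change by 0.19, left 7 called, 6 higher and 1 lower, since PRDX6 was lost and CBR1 gained; the median moved from 0.34 to 0.16 and the sign turned for AKR1C1 (−0.13), UGDH (−0.12), ABCC4 (−0.12), BLVRA (−0.18) and CAT (−0.029). Centring on genes with at least 10 reads kept the sign and call of all 37. Leaving out AKR1B10, AKR1C2, TRIM16 and TRIM16L, covered over at least 50% by another gene, could not alter the 7 calls, since none of them was called. AKR1C1, covered over 49.32%, was kept. Of the other lists, 15 genes were called, with 4 at 0.01, 23 at 0.1 and 23 adjusted over genes with at least 10 reads. Members with a full core in a promoter window numbered 12, with 5 for the core followed by an A, 20 for the shorter core and 19 in the longer window. AKR1B10, AKR1C1, CBR3 and ABCC3 were read at low depth (11.8, 26.3, 51.1 and 66.7 reads in OLO). Their SEs were larger than those of 87.0%, 98.4%, 84.9% and 96.0% of genes of like expression. What sets their wide intervals was not tested.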
